A study of Rattus norvegicus with 23 samples.

Results

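The miRNAs miR-199a-5p, miR-199a-3p and miR-214 were followed across rat mammary carcinomas and normal mammary tissue. They were taken by name from the array annotation and not by a cut on their levels, but the choice was made with earlier results of these data known. They are 3 of the 350 miRNAs on the array and 3 of the 199 that were tested. Total RNA labelled with Cy3 was hybridised to 23 Agilent miRNA arrays, 1 per tissue, in a study that looked for miRNA patterns particular to radiation-induced tumours. The groups were 8 radiation-induced mammary carcinomas, 8 spontaneous mammary carcinomas and 7 normal mammary tissues, all from female Sprague-Dawley rats. Radiation dose and the ages of the animals are not given in the sources used here. Nothing in the labels ties the 7 normal tissues to separate animals, and the spread behind p-values against them may in part be technical.

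miR-199a and miR-214 are made from a long noncoding RNA, Dnm3os, which is transcribed from the strand opposite to the dynamin gene Dnm3. Their transcription in mouse is driven by the mesenchymal factor Twist1, and in adult tissue they are best known from fibroblasts, stellate cells and other stromal cells. miR-199a-5p represses caveolin-1 in human lung fibroblasts, and miR-199a-3p represses the kinase mTOR in human liver cancer cells. In human and mouse a further gene for miR-199a lies within Dnm2, and an array of mature miRNAs cannot tell the loci apart.

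The mature sequences below are shown because the 3 miRNAs come from 1 short stretch of the genome and yet have different seeds, the stretch of a miRNA that pairs with its targets (bases 2 to 8, in capitals). They are RefSeq's, on build GRCr8, 5′ to 3′. The array name rno-miR-214 carries no arm and was matched to the 3p arm, which the older name denoted.
rno-miR-199a-5p: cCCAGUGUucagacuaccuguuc
rno-miR-199a-3p: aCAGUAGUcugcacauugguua
rno-miR-214-3p: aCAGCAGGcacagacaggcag
The miR-199a arms lie at chr13:77116255-77116277 (5p) and chr13:77116294-77116315 (3p), and miR-214-3p at chr13:77121713-77121733, all on the plus strand. Between miR-199a-3p and miR-214-3p lie 5397 bases, and both miRNA genes lie inside the span of Dnm3, which is on the minus strand. The 3 seeds differ from each other, and none of the 724 mature rat miRNAs in the RefSeq table other than these shares any of them.

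Each miRNA had 2 probes on the array, and the brighter one was used. Levels are log2 of the background-subtracted signal, divided by a 75th percentile taken per array and multiplied by a factor common to all arrays. Thus 1 unit is a 2-fold step in a relative signal, and a level of 3.29 is the floor of measurement. All 3 miRNAs were well above background on 23 of 23 arrays, with their lowest levels at 6.55 (miR-199a-5p), 7.98 (miR-199a-3p) and 6.77 (miR-214). Within an array 7 to 10 spots per probe were averaged, and their median coefficient of variation was 4.76%, 4.04% and 4.94% for miR-199a-5p, miR-199a-3p and miR-214. The second probe of each miRNA had a correlation of 0.997 to 0.999 with the first over the 23 arrays.

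The spontaneous carcinoma arrays were dimmer, with a 75th percentile before scaling of 335 to 936, against 729 to 2032 in radiation-induced carcinomas and 960 to 2494 in normal tissue. They detected 154 to 174 miRNAs, against 169 to 206 in radiation-induced carcinomas and 180 to 212 in normal tissue. The arrays came from 4 slides with a single scan each. Slide 4 held 3 radiation-induced carcinomas, 3 spontaneous carcinomas and 1 normal tissue, so any value against normal tissue within slide 4 rests on a single normal array. Slides 1 and 2 held 2 and 3 spontaneous carcinomas with 2 normal tissues each, and slide 3 held 5 radiation-induced carcinomas with 2 normal tissues. On radiation-induced carcinoma 3 and spontaneous carcinoma 1 all 5 members of the epithelial miR-200 family (miR-200a to miR-200c, miR-141 and miR-429) were at the floor. In the other carcinomas miR-200c was at 11.83 or above, and in normal tissue at 9.93 or above. Both tumours stayed in the comparisons. The differences in level of the 3 miRNAs between groups are also given without them, as are some other results where this is stated.

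All 3 miRNAs lay lower in spontaneous carcinomas than in normal tissue, by 3.05-fold to 4.03-fold. In radiation-induced carcinomas they were also lower in 7 of 8 tumours than the normal mean, but 1 tumour held them far above normal tissue and no difference passed the test. Without the tumours that lacked miR-200, all 3 were lower than in normal tissue in both kinds of carcinoma. Those tumours held the highest levels of the 3 miRNAs in their groups, so leaving them out by itself lowers the group means. No difference between the carcinoma types passed.

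miR-199a-5p was at 7.79 in the lowest, 9.08 in the median and 12.41 in the highest of 8 radiation-induced carcinomas. Its lowest, median and highest levels were 6.55, 8.40 and 10.41 in 8 spontaneous carcinomas and 9.86, 10.14 and 10.84 in 7 normal tissues. The means were 9.33 ± 1.37 in radiation-induced carcinomas, 8.45 ± 1.21 in spontaneous carcinomas and 10.26 ± 0.38 in normal tissue (SD, n = 8, 8 and 7). Of the radiation-induced carcinomas 7 lay below every normal tissue and 1 above every one. Of the spontaneous carcinomas 7 lay below every normal tissue and 1 within the normal range.

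miR-199a-3p was at 8.77 in the lowest, 10.23 in the median and 13.51 in the highest radiation-induced carcinoma. The same 3 values were 7.98, 9.73 and 11.82 in spontaneous carcinomas and 11.43, 11.69 and 12.31 in normal tissue. The means were 10.46 ± 1.40 in radiation-induced carcinomas, 9.82 ± 1.19 in spontaneous carcinomas and 11.83 ± 0.32 in normal tissue (SD, n = 8, 8 and 7). As for the 5p arm, 7 of 8 carcinomas of each kind lay below every normal tissue.

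miR-214 was at 7.14 in the lowest, 8.62 in the median and 12.12 in the highest radiation-induced carcinoma. The same 3 values were 6.77, 7.82 and 10.35 in spontaneous carcinomas and 9.18, 9.81 and 10.30 in normal tissue. The means were 8.88 ± 1.46 in radiation-induced carcinomas, 8.16 ± 1.20 in spontaneous carcinomas and 9.77 ± 0.36 in normal tissue (SD, n = 8, 8 and 7). In each carcinoma group 6 of 8 tumours lay below every normal tissue, 1 within the normal range and 1 above it.

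**Figure D1:**
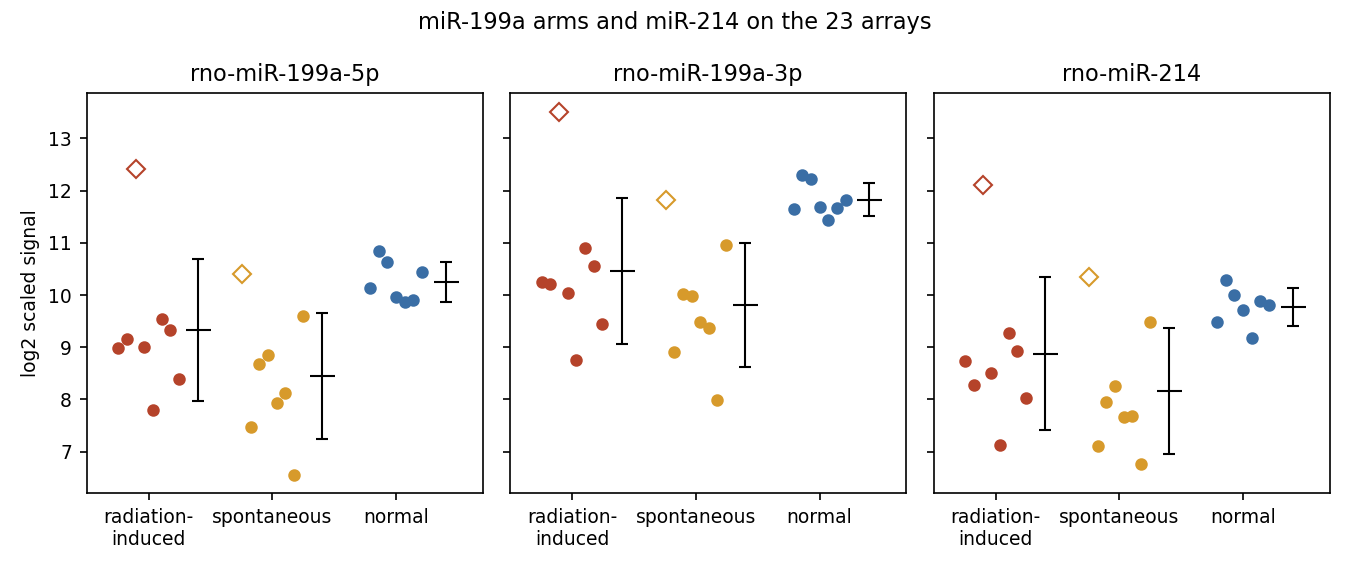
Level of each miRNA (log2 scaled signal, vertical axis) on each of the 23 arrays, by tissue group, with the mean ± SD as a bar beside the points. Open diamonds mark the 2 carcinomas whose miR-200 family was at the floor. The diamond of the radiation-induced group lies above every normal tissue in all 3 panels, and the filled points of both carcinoma groups lie below normal tissue but for 2 in the miR-214 panel.

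In the comparison of radiation-induced carcinomas with normal tissue, 0 of the 3 miRNAs passed an adjusted p of 0.05 (limma over all 199 miRNAs, Benjamini-Hochberg), where 25.1% of all tested miRNAs passed in either direction, 16.6% as higher and 8.54% as lower. Their log2 differences were -1.37 ± 0.54 for miR-199a-3p (adjusted p = 0.0661), -0.93 ± 0.54 for miR-199a-5p (adjusted p = 0.227) and -0.89 ± 0.56 for miR-214 (adjusted p = 0.251; SE). At an unadjusted p under 0.05, 1 of the 3 passed, where 37.7% of all tested miRNAs did, and the median difference of all tested miRNAs was 0.14. For each miRNA 7 of 8 tumours lay below the normal mean, and the 95% interval of the difference ran from -2.49 to -0.24 for miR-199a-3p, from -2.05 to 0.20 for miR-199a-5p and from -2.06 to 0.27 for miR-214. Without radiation-induced carcinoma 3 alone the 3 miRNAs passed, with adjusted p of 0.00316, 0.0179 and 0.0188 in the same order. Within slide 3, which holds that tumour, the differences were -0.99, -0.42 and -0.58, and within slide 4, with its single normal tissue, they were -1.52, -1.35 and -1.06, in the same order.

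Spontaneous carcinomas were lower than normal tissue in 3 of 3 miRNAs, where 40.7% of all tested miRNAs passed in either direction, 26.1% as higher and 14.6% as lower. miR-199a-3p was 4.03-fold lower (log2 -2.01 ± 0.54 SE, limma adjusted p = 0.00578), with 8 of 8 tumours below the normal mean. miR-199a-5p was 3.49-fold lower (log2 -1.80 ± 0.54, limma adjusted p = 0.0104) and miR-214 3.05-fold lower (log2 -1.61 ± 0.56, limma adjusted p = 0.0241), each with 7 of 8 tumours below the normal mean. The median of all tested miRNAs was 0.23. Without scaling between arrays the differences were larger (log2 -3.36 for miR-199a-3p, -3.15 for miR-199a-5p and -2.96 for miR-214), while the median of all tested miRNAs moved to -0.98. In these whole-tissue samples fewer cells that carry the miRNAs and less of them per cell cannot be told apart. With array brightness as a covariate none of the 3 passed (log2 -1.24, -0.97 and -0.99, adjusted p = 0.461, 0.591 and 0.591), and miR-214 also missed with slide as a block (log2 -1.57, adjusted p = 0.0511). Within slides 1, 2 and 4 the differences were -1.62, -2.14 and -2.37 for miR-199a-3p, -1.55, -1.81 and -2.35 for miR-199a-5p, and -1.16, -1.90 and -1.83 for miR-214.

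Between radiation-induced and spontaneous carcinomas 0 of 3 passed, where 18.1% of all tested miRNAs passed in either direction, 8.04% as higher and 10.1% as lower. The log2 differences were 0.88 ± 0.53 for miR-199a-5p (limma adjusted p = 0.249), 0.72 ± 0.54 for miR-214 (adjusted p = 0.380) and 0.64 ± 0.52 for miR-199a-3p (adjusted p = 0.416; SE). Their 95% intervals ran from -0.21 to 1.96, from -0.41 to 1.84 and from -0.44 to 1.73, so a radiation-induced level between 1.36-fold lower and 3.90-fold higher lies within at least 1 of them. At an unadjusted p under 0.05, 0 of the 3 passed, where 35.2% of all tested miRNAs did, and for each miRNA 6 of 8 radiation-induced carcinomas lay above the spontaneous mean. Without scaling between arrays the differences were 1.81, 1.65 and 1.58 with adjusted p of 0.0173, 0.0291 and 0.0342, while the median of all tested miRNAs moved to 0.81.

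The 2 carcinomas that lacked the miR-200 family held the highest level of each of the 3 miRNAs in their own groups. Radiation-induced carcinoma 3 had miR-199a-5p at 12.41, miR-199a-3p at 13.51 and miR-214 at 12.12, against at most 9.55, 10.90 and 9.27 in the other radiation-induced carcinomas. It was the highest of the 23 arrays for all 3. Spontaneous carcinoma 1 had them at 10.41, 11.82 and 10.35, against at most 9.60, 10.96 and 9.48 in the other spontaneous carcinomas. Its miR-199a levels lay within the normal range and its miR-214 just above the highest normal tissue (10.30). The summed scaled signal of 11 epithelial miRNAs was 92.4 in radiation-induced carcinoma 3 and 62.5 in spontaneous carcinoma 1. In the other carcinomas it was 17824 to 31063, and in normal tissue 4408 to 13290.

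Leaving out these 2 tumours removes the highest level of each of the 3 miRNAs from both carcinoma groups, which by itself lowers the group means. The values without them describe the remaining tumours and are not separate support. With these 2 tumours left out, the 3 miRNAs were lower than normal tissue in radiation-induced carcinomas too, by 3.49-fold for miR-199a-3p (log2 -1.81 ± 0.36 SE, limma adjusted p = 0.000492), 2.58-fold for miR-199a-5p (log2 -1.37 ± 0.36, adjusted p = 0.00377) and 2.56-fold for miR-214 (log2 -1.36 ± 0.35, adjusted p = 0.00324). Over all tested miRNAs 47.7% then passed in either direction, 33.7% as higher and 14.1% as lower. In spontaneous carcinomas the log2 differences were -2.30, -2.08 and -1.92, with adjusted p of 3.02e-05, 7.36e-05 and 0.000115, where 51.3% passed in either direction, 36.2% as higher and 15.1% as lower. Both miR-199a arms then lay below every normal tissue in 14 of 14 carcinomas, while 25.6% of all tested miRNAs did not overlap between radiation-induced carcinomas and normal tissue and 20.6% between spontaneous carcinomas and normal tissue. miR-214 lay below every normal tissue in 12 of 14, the exceptions being radiation-induced carcinoma 6 (9.27) and spontaneous carcinoma 8 (9.48), above the lowest normal tissue (9.18). The carcinoma types still did not differ by the test (log2 0.49, 0.72 and 0.57, adjusted p = 0.327, 0.153 and 0.243), where 24.1% of all tested miRNAs passed in either direction, 12.6% as higher and 11.6% as lower.

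**Figure D2:**
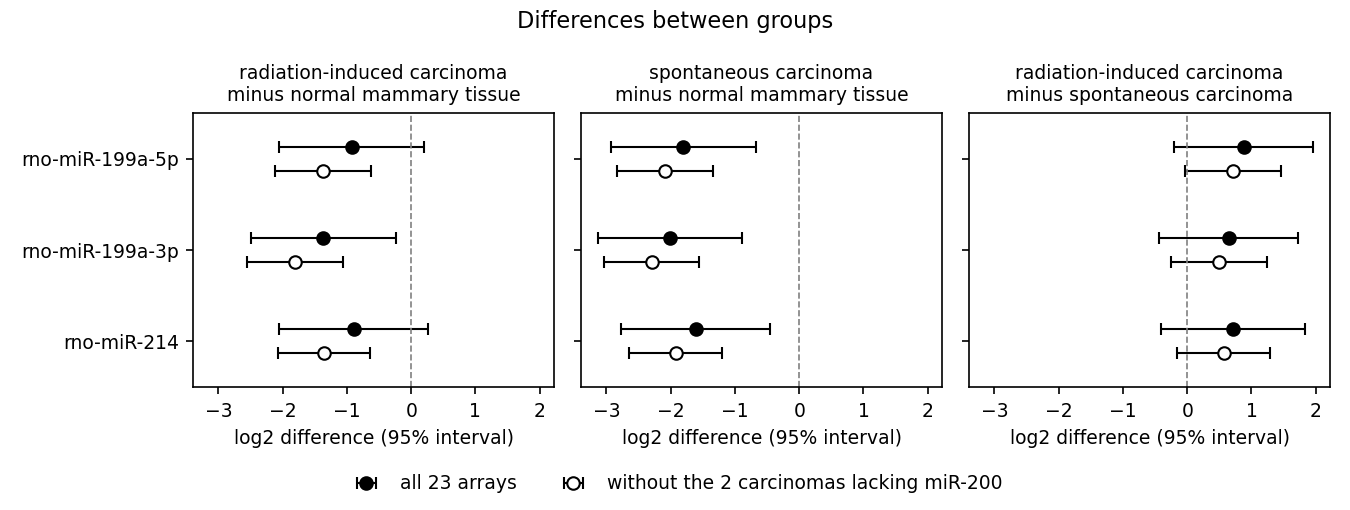
Log2 difference between groups (horizontal axis, limma, with its 95% interval) for each miRNA, in 1 panel per comparison. Filled points use all 23 arrays and open points leave out the 2 carcinomas that lacked miR-200, which moves the radiation-induced minus normal differences further below 0 and shortens all intervals.

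The 3 miRNAs spanned a wider range among carcinomas than among normal tissues. Between the highest and lowest array lay 4.62 to 4.98 log2 units in radiation-induced carcinomas (24.5-fold to 31.6-fold) and 3.58 to 3.86 in spontaneous carcinomas, against 0.88 to 1.12 in normal tissue. Their SDs in radiation-induced carcinomas ranked 16 (miR-214), 20 (miR-199a-3p) and 22 (miR-199a-5p) from the top of the 199, where the median SD was 0.49. In spontaneous carcinomas they ranked 34 to 42, with a median SD of 0.74, and in normal tissue 72 to 91, with a median SD of 0.30. Without the tumours lacking miR-200 the SDs were 0.60 to 0.71 in radiation-induced carcinomas and 0.88 to 0.99 in spontaneous carcinomas. They then ranked 32 to 49 and 26 to 45 from the top, with median SDs of all tested miRNAs of 0.37 and 0.51. Radiation-induced carcinoma 5 was the lowest radiation-induced tumour for all 3 miRNAs, and spontaneous carcinoma 7 the lowest spontaneous one.

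The 3 miRNAs kept nearly the same order of arrays. Their correlation was 0.987 between the miR-199a arms, 0.979 between miR-199a-5p and miR-214 and 0.978 between miR-199a-3p and miR-214 (Pearson, 23 arrays, given as a description of arrays that share scaling and group differences). Within the 7 normal tissues the same correlations were 0.942, 0.773 and 0.886. Within the 8 radiation-induced carcinomas they were 0.990 to 0.996, and within the 8 spontaneous carcinomas 0.969 to 0.995.

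The offset between the arms of miR-199a differed between groups. The difference between 2 probes on an array does not depend on the scaling between arrays, and as probes differ in brightness only its change between groups can be read. The 3p minus 5p difference ran from 0.97 to 1.34 in radiation-induced carcinomas, from 1.13 to 1.55 in spontaneous carcinomas and from 1.38 to 1.75 in normal tissue. The means were 1.13 ± 0.13, 1.36 ± 0.13 and 1.57 ± 0.13 for radiation-induced carcinomas, spontaneous carcinomas and normal tissue (SD, n = 8, 8 and 7), and the radiation-induced and normal ranges did not overlap. In exact two-sided permutation tests, adjusted over the 9 tests on pairs of these miRNAs, radiation-induced carcinomas lay 0.44 below normal tissue (adjusted p = 0.0021) and 0.23 below spontaneous carcinomas (adjusted p = 0.0112). Spontaneous carcinomas lay 0.21 below normal tissue (adjusted p = 0.0151). With normexp background correction the difference between the carcinoma types was -0.046 and missed the threshold (exact permutation adjusted p = 0.605), and that of spontaneous carcinomas from normal tissue was -0.43. With slide as a block the differences were -0.43, -0.14 and -0.16 in the same order, and none passed in exact permutation tests within slides (adjusted p = 0.0563, 0.3 and 0.131). Between the carcinoma types only slide 4 enters, with 3 tumours of each kind, which is too few for this test to pass. Radiation-induced minus normal rests on 2 normal tissues on slide 3 and 1 on slide 4, so few arrangements exist and its p cannot become very small. Within single slides the radiation-induced minus normal value was -0.58 on slide 3 and -0.16 on slide 4, the radiation-induced minus spontaneous value -0.14 on slide 4, and the spontaneous minus normal value -0.073, -0.32 and -0.027 on slides 1, 2 and 4.

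The miR-214 minus miR-199a-3p difference was -1.58 ± 0.17 in radiation-induced carcinomas, -1.66 ± 0.26 in spontaneous carcinomas and -2.06 ± 0.17 in normal tissue (SD, n = 8, 8 and 7). It lay 0.47 above normal tissue in radiation-induced carcinomas (exact permutation adjusted p = 0.0021, 8 of 8 above the normal mean) and 0.40 above in spontaneous carcinomas (exact permutation adjusted p = 0.0112, 7 of 8). With slide as a block the 2 differences were 0.43 and 0.39 and missed the threshold (exact permutation adjusted p = 0.0714 and 0.0563), with values of 0.41 and 0.45 on slides 3 and 4 for radiation-induced carcinomas and 0.46, 0.23 and 0.54 on slides 1, 2 and 4 for spontaneous carcinomas. For radiation-induced carcinomas few arrangements within slides exist, which limits how small the p with slide as a block can become. With normexp background correction the spontaneous minus normal value was 0.68. Between the carcinoma types the difference was 0.073 (exact permutation p = 0.516, adjusted p = 0.581). The miR-214 minus miR-199a-5p difference passed in no comparison (exact permutation p = 0.785, 0.202 and 0.248, adjusted p = 0.785, 0.303 and 0.319, for radiation-induced minus normal, spontaneous minus normal and radiation-induced minus spontaneous).

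**Figure D3:**
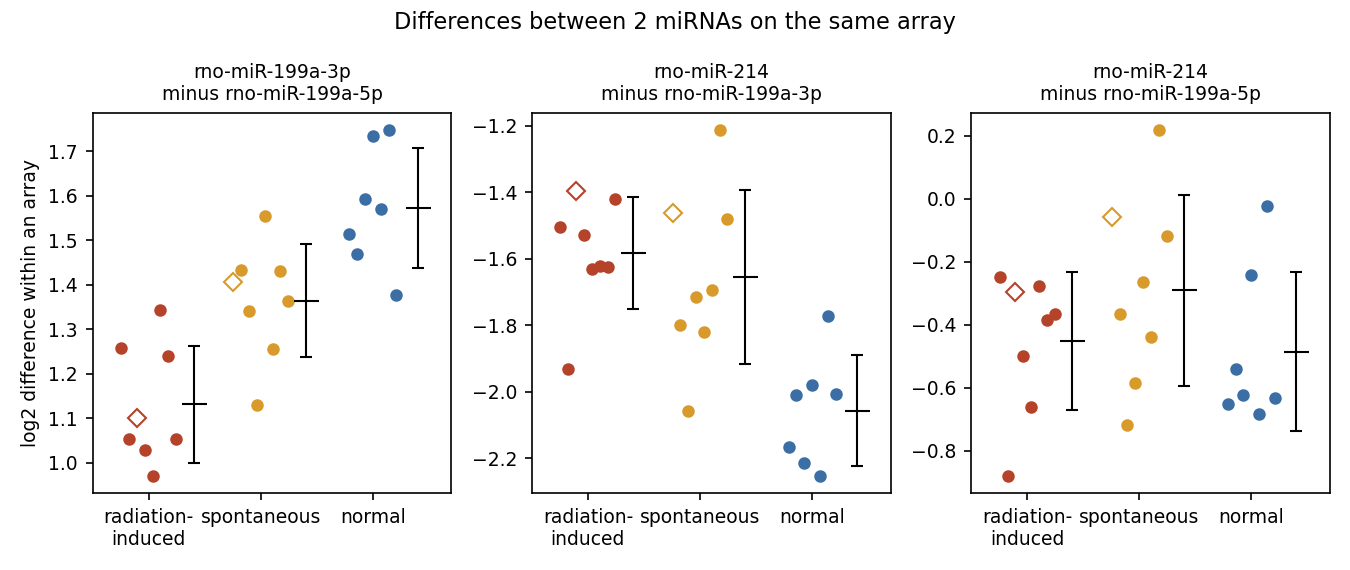
Log2 difference between a pair of the miRNAs on the same array (vertical axis), by tissue group, with the mean ± SD as a bar beside the points and the 2 carcinomas lacking miR-200 as open diamonds. In the left panel the radiation-induced carcinomas (0.97 to 1.34) lie below all normal tissues (1.38 to 1.75), and in the right panel the 3 groups overlap.

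The other miRNAs most like these 3 were found by the correlation of their log2 level with the mean level of the 3 over the 23 arrays. Among the 196 others the median correlation was -0.20. The 5 highest were miR-10b (0.78) and miR-10a-5p (0.70), which lie in the Hox gene clusters, miR-126* (0.75) of endothelial cells, miR-335 (0.74), which lies in an intron of the imprinted gene Mest, and miR-196a (0.71), also of the Hox gene clusters. After the mean of its group was subtracted from each array, the 5 highest were miR-10b (0.78), miR-335 (0.69), miR-221 (0.69), miR-222 (0.66) and miR-126* (0.62). miR-221 and miR-222 repress the cell cycle inhibitor p27. Without the tumours lacking miR-200 the group-centred correlation over 21 arrays was 0.30 for miR-221, 0.20 for miR-222, 0.35 for miR-335, 0.54 for miR-10b and 0.64 for miR-126*, with a median of -0.019 over the 196 others. It was 0.695 for miR-10a-5p, the highest of the miRNAs named here, and 0.29 for miR-196a. The uncentred correlation was 0.42 over 23 arrays and 0.095 over 21 for miR-221, and 0.56 and 0.36 for miR-222. miR-335 was at 8.35 in radiation-induced carcinoma 3 and 6.34 in spontaneous carcinoma 1, the highest of each group, and it was detected in only 1 of 8 spontaneous carcinomas. Over the 23 arrays miR-126*, miR-222 and miR-335 were detected on 16 each and miR-196a on 12. Their correlations thus rest in part on values at or near the floor.

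miR-10b was lower than in normal tissue in both kinds of carcinoma. It was at 7.61 to 10.02 in radiation-induced carcinomas, 6.92 to 9.61 in spontaneous carcinomas and 10.55 to 11.07 in normal tissue. Its log2 differences from normal tissue were -2.46 ± 0.37 in radiation-induced carcinomas (limma adjusted p = 0.000104) and -2.53 ± 0.37 in spontaneous carcinomas (adjusted p = 2.27e-05; SE), and no carcinoma reached the normal range. Groups without overlap made up 9.05% of all tested miRNAs for radiation-induced carcinomas and 15.6% for spontaneous carcinomas.

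**Figure D4:**
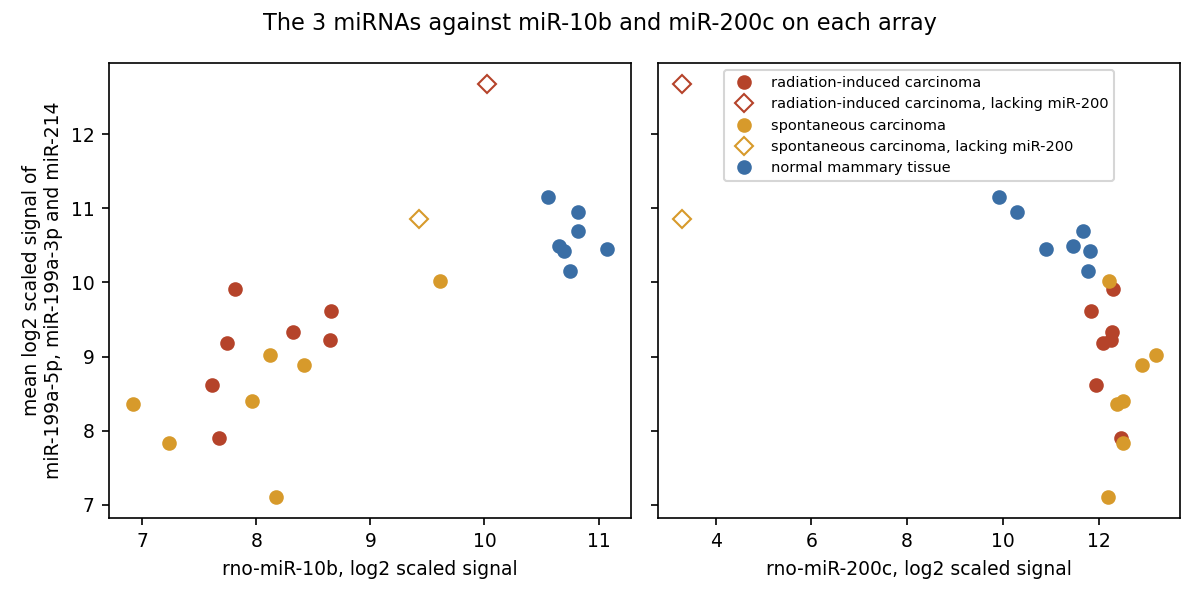
Mean log2 scaled signal of the 3 miRNAs (vertical axis) against miR-10b (left) and miR-200c (right) on each array, coloured by group. In the left panel both carcinoma groups lie at or below 10.02 and normal tissue at or above 10.55 in miR-10b, and in the right panel the 2 carcinomas with miR-200c at the floor of 3.29 (open diamonds) stand apart from the other 21 arrays.

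Of 7 other miRNAs of smooth muscle and fibroblasts, 5 had a positive correlation with the mean of the 3 over the 23 arrays. These were miR-10b (0.78), miR-100 (0.60), miR-125b-5p (0.48), miR-99a (0.44) and miR-152 (0.41), where the median of the 196 others was -0.20. The smooth muscle miRNAs miR-143 and miR-145 were at -0.13 and -0.22. After centring on groups the values fell to 0.35 for miR-100, 0.32 for miR-125b-5p and 0.155 for miR-99a. That of miR-10b stayed at 0.78, and the centred median was -0.14. The log2 summed signal of the 7 had a correlation of 0.28 with the mean of the 3 over the 23 arrays. Against normal tissue 1 of the 7, miR-10b, was lower in radiation-induced carcinomas (median of the 7 -0.13, against 0.14 over all tested miRNAs, of which 8.54% were lower). In spontaneous carcinomas 4 were lower, namely miR-10b, miR-100 (log2 -1.31), miR-99a (-1.30) and miR-125b-5p (-1.10), and the median was -1.10, against 0.23 over all, of which 14.6% were lower. Between the carcinoma types 4 of the 7 were higher in radiation-induced tumours: miR-145 (log2 1.36), miR-125b-5p (1.32), miR-143 (1.30) and miR-100 (0.93), with adjusted p of 0.0121 to 0.0367, where 8.04% of all tested miRNAs were higher. Without the 2 tumours lacking miR-200 the counts were 1 higher and 2 lower, 0 and 5, and 4 and 0, in the same order of comparisons. Of all tested miRNAs 33.7% were then higher and 14.1% lower, 36.2% and 15.1%, and 12.6% and 11.6%.

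In the tumours lacking miR-200 most of these stromal miRNAs went together with the 3 miRNAs in one case and apart from them in the other. Radiation-induced carcinoma 3 had the highest level of its group in miR-152 (9.60), miR-100 (8.37), miR-125b-5p (13.86), miR-99a (10.80) and miR-10b (10.02), but the lowest in miR-143 (11.77) and miR-145 (4.48). Spontaneous carcinoma 1, the highest of its group in all 3 miRNAs, was the lowest in miR-152 (5.35), miR-100 (5.74), miR-125b-5p (9.85) and miR-99a (7.11). Its miR-145 was at the floor, and its miR-143 was at 10.12, within the 9.84 to 12.73 of the other spontaneous carcinomas. By contrast, its miR-10b (9.42) ranked 2 from the top of its group, below only 9.61. The summed signal of the 7 was 2959 in that tumour, against 5238 to 11098 in the other spontaneous carcinomas. It was also the only spontaneous carcinoma with the neural miR-124 (8.21) and miR-9 (7.18) above the floor. As whole tissue was measured, the cells that hold miR-199a and miR-214 in any sample were not identified, and the part of cell composition in these differences was not tested.

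Among miRNAs known from fibrosis and collagen control (miR-21, the miR-29 family, miR-34a, miR-192, miR-26a and miR-30c), 1 of 8 rose in radiation-induced carcinomas against normal tissue, namely miR-192 (log2 1.03, adjusted p = 0.000282), where 16.6% of all tested miRNAs rose. In spontaneous carcinomas miR-192 rose (log2 0.59, adjusted p = 0.0115) and miR-29a, which represses collagens, fell (log2 -0.92, adjusted p = 0.0166), where 26.1% of all tested miRNAs rose and 14.6% fell. Between the carcinoma types miR-29a was higher in radiation-induced tumours (log2 1.04, adjusted p = 0.0186). The medians of the list were 0.19, -0.25 and 0.63 for radiation-induced minus normal, spontaneous minus normal and radiation-induced minus spontaneous. Without the 2 tumours lacking miR-200, 3 rose in the first comparison (miR-21, miR-34a and miR-192), where 33.7% of all tested miRNAs rose, and miR-29b joined miR-29a in the last, where 12.6% rose.

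The log2 summed signal of markers of other cells had a correlation with the mean of the 3 miRNAs over the 23 arrays of 0.68 for endothelial, 0.28 for striated muscle, 0.074 for erythroid, 0.033 for leukocyte, -0.0042 for neural, -0.15 for adipose and -0.68 for epithelial miRNAs. These values include the 2 tumours lacking miR-200, whose epithelial sums (92.4 and 62.5) lay far below the 4408 or more of all other arrays and weigh heavily on the epithelial value. No correlation of these sums without the 2 tumours is given here. The counts of these lists stand beside 16.6% of all tested miRNAs higher and 8.54% lower in radiation-induced carcinomas than in normal tissue, and 26.1% and 14.6% in spontaneous carcinomas. Of 4 endothelial miRNAs 3 were lower than in normal tissue in each kind of carcinoma (miR-126, miR-126* and miR-139-5p), and 0 differed between the carcinoma types by limma, also at an unadjusted p under 0.05. The summed endothelial signal was 372 to 2780 in radiation-induced carcinomas, with carcinoma 3 the highest, 470 to 1156 in spontaneous carcinomas and 1685 to 2513 in normal tissue. Of 11 epithelial miRNAs 0 passed limma's test in any comparison over all arrays, with 0, 1 and 0 at an unadjusted p under 0.05 (radiation-induced minus normal, spontaneous minus normal and radiation-induced minus spontaneous). Without the 2 tumours lacking miR-200, 10 were higher in radiation-induced and 8 in spontaneous carcinomas than in normal tissue, where 33.7% and 36.2% of all tested miRNAs were. Of 6 leukocyte miRNAs 1 was lower in radiation-induced and 3 in spontaneous carcinomas than in normal tissue, and 2 and 2 without those tumours, where 14.1% and 15.1% of all tested miRNAs were lower. Of 6 adipose miRNAs 2 fell and 0 rose in radiation-induced carcinomas, and 2 rose and 2 fell in spontaneous carcinomas. Of 3 tested striated muscle miRNAs 2 were lower in radiation-induced and 1 in spontaneous carcinomas, and of 2 erythroid ones 0 passed limma's test against normal tissue (0 at an unadjusted p under 0.05). The 2 striated muscle miRNAs lower in radiation-induced carcinomas, miR-1 and miR-133b, had means of 3.33 there, close to the floor. The 1 tested neural miRNA, miR-128, was higher in both. The part of any of these cell types in the levels of miR-199a and miR-214 was not tested.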

How the data were processed

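Per the file headers, the deposited scanner files are output of Agilent Feature Extraction 9.5.1.1 and give spot intensity, not on a log scale. The processed signal has the local background taken off, and no normalization across arrays. In the deposited table of the authors the intensity is the total gene signal, also unscaled. Spots without an outlier mark were averaged per probe. Signals were divided by the array's 75th percentile over 199 probes that all arrays detected and multiplied by the geometric mean of these percentiles. They were then floored at 9.81 and log2-transformed. The brightest probe stood for each miRNA, and miRNAs detected on at least 7 arrays were tested.

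The comparisons used limma (version 3.58.1, R 4.3.3) with 1 mean per group over 23 arrays and Benjamini-Hochberg adjustment over 199 miRNAs (threshold 0.05). Within-array differences used exact two-sided permutation tests. The miRNAs and lists were chosen with earlier results of these data known. Named by rule were the 3 miRNAs, the 5 most correlated with their mean over the arrays and after centring on groups, up to 4 members of a list with the smallest p, and the miR-200 family. The array headers name build rn4, so RefSeq GRCr8 served for sequences, their coordinates and neighbouring genes. The normexp alternative (offset 50) used median spot signals in place of the planned mean signals. The fit was also run on simulated data with independent noise and no slide, brightness or outlying-tumour effects, which checks only the code. Other alternatives changed the scaling, signal, floor, probe, filter, slide, brightness, samples and array weights. The precision rests on the number of arrays.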

Additional observations from a re-analysis of the deposited data

Results flagged for a closer look

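Of 18 sets of 7 or 8 values tested for a value far from the rest, 4 held one, where chance alone gives about 1 in 20. In radiation-induced carcinomas, carcinoma 3 stood above the others in miR-199a-5p (12.41, nearest 9.55), miR-199a-3p (13.51, nearest 10.90) and miR-214 (12.12, nearest 9.27). These 3 values come from the same array and miRNAs that move together, so they are not independent. The array was neither the brightest nor the dimmest of its group (75th percentile before scaling 1227, in a group of 729 to 2032), and it is one of the 2 tumours lacking miR-200. In the miR-214 minus miR-199a-3p difference, radiation-induced carcinoma 2 was the lowest of its group at -1.93, with the nearest at -1.63.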

How the results depend on the processing

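No alternative turned the direction of a difference in the level of the 3 miRNAs between groups. Radiation-induced minus spontaneous differences passed unscaled (1.81, 1.58 and 1.65 for miR-199a-5p, miR-199a-3p and miR-214) and in the deposited table (1.80, 1.56 and 1.64), where the median of all miRNAs moved to 0.81 and 0.83. Radiation-induced minus normal differences passed without the tumours lacking miR-200 (-1.37, -1.81 and -1.36) and with array weights (-1.37, -1.81 and -1.35), and miR-199a-3p with only the 2 groups fitted (-1.37, adjusted p = 0.0458). Spontaneous minus normal differences missed the threshold within slide 1 (-1.55, -1.62 and -1.16), within slide 4 with its 1 normal tissue (-2.35, -2.37 and -1.83), in miR-199a-5p within slide 2 (-1.81) and with the brightness covariate (-0.97, -1.24 and -0.99), and fewer arrays enter each slide. miR-214 also missed with no filter on dim miRNAs (-1.61, adjusted p = 0.0543), with slide as a block (-1.57) and with only the 3 spontaneous carcinomas whose codes are of the radiation-induced kind (-1.79, adjusted p = 0.0782). Leaving out 1 array at a time gave -1.37 to -0.71, -1.81 to -1.13 and -1.36 to -0.65 for radiation-induced minus normal. Without radiation-induced carcinoma 3 all 3 passed, and without spontaneous carcinoma 1 so did miR-199a-3p. It gave -2.08 to -1.53, -2.30 to -1.75 and -1.92 to -1.41 for spontaneous minus normal, where miR-214 missed without spontaneous carcinoma 2 (adjusted p = 0.0509) or 7 (adjusted p = 0.0519), and 0.44 to 1.16, 0.21 to 0.93 and 0.25 to 1.03 between the carcinoma types. The miR-199a-3p minus miR-199a-5p differences missed with slide as a block (-0.43 radiation-induced minus normal, -0.16 spontaneous minus normal, -0.14 between the carcinoma types), fell to -0.046 between the carcinoma types with normexp, and moved within slides 3 and 4 for radiation-induced minus normal (-0.58 and -0.16) and slides 1 and 4 for spontaneous minus normal (-0.073 and -0.027). The miR-214 minus miR-199a-3p differences missed with slide as a block (0.43 and 0.39 against normal tissue) and turned negative between the carcinoma types with normexp (-0.14) and with slide as a block (-0.092). The miR-214 minus miR-199a-5p differences were -0.0077 with slide as a block for radiation-induced minus normal, and -0.089 and 0.52 within slides 2 and 4 for spontaneous minus normal. The slide alternatives for these within-array differences were chosen after seeing the data. Between the carcinoma types they rest on slide 4 alone, where the permutation test had too few arrays to pass. Counts of all called miRNAs ran from 0 to 117, 0 to 145 and 0 to 108 over the alternatives for radiation-induced minus normal, spontaneous minus normal and radiation-induced minus spontaneous. The cause of these changes was not tested. No paired analysis was possible because the tumour codes all differ and the replicate numbers only follow the order of deposit.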
